A study of Mus musculus with 3 samples.

Results

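The members are 9 receptors of the TNF receptor superfamily that T cells are known for: Cd27, Tnfrsf4, Tnfrsf9, Tnfrsf18, Tnfrsf1b, Tnfrsf1a, Tnfrsf25, Tnfrsf10b and Fas. They were taken by name, after each gene identifier in the tables had been matched to its symbol, and make up 9 of 50600 genes. The samples are 3 libraries of mouse T-helper 1 (Th1) primary cells, strain C57BL/6NJ, with no allele or agent named in the labels. Th1 cells are the class of CD4 helper T cell known for making interferon gamma. All 3 libraries form 1 group, biological replicates 1, 2 and 3. Each has its own biosample and all carry the same donor entry, so the p-values below measure the spread between these samples, which may be technical. Age, sex and the method of making the cells are not spelled out in the labels, which link a protocol for differentiating CD4+ T cells.

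Receptors of this family sit on the cell surface and are engaged by trimeric ligands of the TNF family. One class carries a short cytoplasmic tail that binds TRAF adaptor proteins, through which it activates NF-kB and supports the survival and expansion of activated T cells. The other class carries a death domain, which recruits adaptors such as FADD or TRADD and can lead to caspase activation as well as to NF-kB. On T cells the first class is best known as a set of costimulators that act beside the T cell receptor, and several of its members appear only after activation.

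Total counts were 4442901, 3123869 and 2950658 in replicates 1, 2 and 3. Levels are given as TPM, in which each count is divided by the gene's exon length and scaled to a fixed sum per library. The T cell markers were all present: 6 of 6 lay at 1 TPM or more in every library, and their summed level was 2309, 953 and 1215 TPM. Of the Th1 markers, 3 of 5 reached that level, and their sum was only 16.8 to 25.5 TPM. Ifng, the gene of interferon gamma, had 1, 2 and 0 counts, at or under the limit of 3 counts that a count of 0 allows, and Tbx21, which encodes the factor T-bet, lay at 3.49, 1.5 and 2.60 TPM. Of the other Th1 markers, Il12rb2, an opposed gene (defined below), lay at 9.51, 16.4 and 9.63 TPM. Il18r1 lay at 4.93, 6.09 and 3.91 TPM and Cxcr3 at 1.58, 0.616 and 0.681 TPM. The label Th1 is used here as the submitters' name, since the defining transcripts Ifng and Tbx21 were scarce in the counts. The part of strand assignment, described next, in that scarcity was not tested.

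One property of the tables touches every value. Genes whose exons overlap exons of a gene on the other strand, called opposed genes here, held 55.1%, 69.1% and 67.3% of the counts in replicates 1, 2 and 3. The counting was strand-specific, and mt-Nd6, which lies on the other mitochondrial strand from most mitochondrial genes, stood at 28048, 23326 and 36098 TPM against 4122, 2102 and 1754 TPM for mt-Co1. Whether the strand setting matched the library was not tested. TPM values of different libraries are therefore set side by side with the shares of opposed genes in view. Order within a library does not depend on the library's scale, but it does depend on how each gene's reads were assigned by strand.

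Most of the receptors stood clear of such overlaps. The span of 6 of the 9 (Tnfrsf1b, Tnfrsf4, Tnfrsf25, Tnfrsf1a, Tnfrsf10b and Fas) met no gene of the other strand. Cd27 and Tnfrsf9 lay opposite another gene but shared no exon base with it. Tnfrsf18 alone was opposed: 414 of its 1524 exon bases (27.2%) were shared with the antisense gene Gm16008. The first shared block, chr4:156026297-156026630 on mm10, holds the start of the Tnfrsf18 reading frame. That coding stretch, chr4:156026387-156026537 on the plus strand (GENCODE vM21 transcripts, 151 bases, the same in 3 coding transcript models), is shown because reads from it can be assigned to either gene by strand alone, and it has no capitals because no motif is marked.
Tnfrsf18 coding stretch shared with Gm16008: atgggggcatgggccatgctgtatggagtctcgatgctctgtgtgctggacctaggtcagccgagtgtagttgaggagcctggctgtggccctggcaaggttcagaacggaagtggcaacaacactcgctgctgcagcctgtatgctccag

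A second overlap lies inside Cd27. The microRNA gene Mir8113 lies wholly within a Cd27 exon on the same strand, over 129 bases, and had 0 counts in all 3 libraries. The counting command in the headers holds no option for counting a read pair towards more than 1 gene. Counts of Cd27 over those bases are therefore uncertain, and their number was not tested. The mature sequence (RefSeq, GRCm38.p6, chr6:125234756-125234777, minus strand) is shown with its seed, bases 2 to 8, in capitals.
mmu-miR-8113: cAGGAGAGucaggggcaaguag

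Promoter windows from RefSeq (GRCm38.p6), from 250 bases before to 50 bases after an annotated start, were found for 8 of the 9 members, 10 windows in all. They were searched on both strands for the NF-kB consensus site, for the AP-1 site TGANTCA and for the core GGAAA of NFAT sites, since NF-kB, AP-1 and NFAT are the factors best known downstream of T cell receptor signalling. Of 32851 windows of the same length, 4.51% held an NF-kB match, 7.81% an AP-1 match and 61.34% an NFAT core. Among the 10 member windows the numbers were 1, 2 and 8. The NFAT core of one strand can lie within an NF-kB match, as the core at base -38 of Tnfrsf9 does. A match is a description of these letters and not a site of binding.

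4 windows are shown, with NF-kB and AP-1 matches in capitals. Cd27 and Tnfrsf1b, the receptors with the highest levels, had neither motif in their windows. Nor did Tnfrsf4, Tnfrsf18, Tnfrsf25 or Tnfrsf1a, whose windows are not shown. Tnfrsf9, the receptor with the largest spread between replicates, had a pair of overlapping NF-kB matches at bases -43 and -42 and an AP-1 match at base -15 from the start, in 1 of its 2 windows. Both Tnfrsf9 windows lie within the span that the tables give the gene, at starts downstream of its first base. Fas was the other receptor with an AP-1 match, at base -211. Windows are written 5′ to 3′ on the strand of the gene.
Cd27, chr6:125236978-125237277, minus strand: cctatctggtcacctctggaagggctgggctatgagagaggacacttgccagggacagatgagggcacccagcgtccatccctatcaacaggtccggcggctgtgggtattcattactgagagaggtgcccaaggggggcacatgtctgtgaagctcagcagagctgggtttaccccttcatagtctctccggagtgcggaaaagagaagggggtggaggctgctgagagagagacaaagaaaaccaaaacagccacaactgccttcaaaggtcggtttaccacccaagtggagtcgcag
Tnfrsf1b, chr4:145246821-145247120, minus strand: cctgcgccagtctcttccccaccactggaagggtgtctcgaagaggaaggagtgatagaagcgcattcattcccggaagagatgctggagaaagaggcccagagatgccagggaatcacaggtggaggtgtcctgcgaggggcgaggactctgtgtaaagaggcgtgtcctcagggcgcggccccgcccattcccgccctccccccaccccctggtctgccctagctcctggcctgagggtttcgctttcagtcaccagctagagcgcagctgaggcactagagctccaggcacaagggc
Tnfrsf9, chr4:150927749-150928048, plus strand: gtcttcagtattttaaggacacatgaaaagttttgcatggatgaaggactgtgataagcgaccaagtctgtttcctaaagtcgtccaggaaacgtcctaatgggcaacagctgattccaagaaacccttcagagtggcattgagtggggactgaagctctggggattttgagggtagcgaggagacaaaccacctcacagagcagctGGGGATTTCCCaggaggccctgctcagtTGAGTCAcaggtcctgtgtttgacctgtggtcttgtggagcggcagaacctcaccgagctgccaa
Fas, chr19:34290409-34290708, plus strand: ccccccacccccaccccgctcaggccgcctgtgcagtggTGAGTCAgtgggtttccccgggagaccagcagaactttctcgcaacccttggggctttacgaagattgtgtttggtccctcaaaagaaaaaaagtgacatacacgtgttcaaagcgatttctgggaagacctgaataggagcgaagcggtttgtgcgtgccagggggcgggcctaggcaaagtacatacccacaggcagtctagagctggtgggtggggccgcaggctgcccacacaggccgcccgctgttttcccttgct

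All 9 receptors were detected at 1 TPM or more in every library, against 38.7% of protein-coding genes (8427 of 21764). The least abundant, Tnfrsf10b, still ranked above 76.5% of protein-coding genes in its lowest library. Summed over the 9, the receptors held 4691, 1901 and 2266 counts. The levels nevertheless ranged widely, from 9.44 ± 4.43 TPM for Tnfrsf10b to 320 ± 109.9 TPM for Cd27 (mean ± SD, n = 3, here and below).

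Among the receptors without a death domain, Cd27 came first. Cd27, the receptor for CD70, is carried by resting T cells and supports their survival after activation. It lies on the minus strand at chr6:125232622-125237010 (mm10) with 2328 exon bases in 5 blocks. Its level was 434, 215 and 313 TPM in replicates 1, 2 and 3, from 2211, 937 and 1236 counts. Replicate 1 was the highest and replicate 2 the lowest, and their exact Poisson intervals, 416 to 452 TPM and 201 to 229 TPM, lay far apart (95%, counting error only). Cd27 alone made up 54.3% ± 3.71 of the summed TPM of the 9 receptors, and it ranked above 98.9% of protein-coding genes or more in each library.

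The gene opposite Cd27 is Vamp1, a vesicle fusion protein, whose span covers that of Cd27 on the other strand with no exon base in common. Vamp1 had 398, 406 and 363 counts, so that per exon base Cd27 was 24.3, 10.1 and 14.9 times higher. The raw count of Vamp1 was nearly level over the libraries, whose totals differ, while that of Cd27 was not. In TPM Vamp1 lay at 17.9, 21.3 and 21.0, lowest in replicate 1, where Cd27 was highest.

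Tnfrsf1b encodes TNFR2, the receptor for TNF and lymphotoxin alpha that binds TRAF2 directly and is known for sustaining activated and regulatory T cells. It lies at chr4:145213463-145246870 on the minus strand, with 3818 exon bases. Its level was 164, 76.4 and 87.8 TPM (mean 109 ± 47.7), from 1371, 547 and 569 counts. Replicate 1 lay well above the other libraries, whose exact Poisson intervals, 70.1 to 83.1 and 80.7 to 95.3 TPM, overlapped. Tnfrsf1b held 18.2% ± 1.61 of the summed receptor level, second to Cd27.

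Tnfrsf4 and Tnfrsf18 lie side by side on chromosome 4, 9551 bases apart on the plus strand. Tnfrsf4 encodes OX40, a costimulator that appears after activation, and Tnfrsf18 encodes GITR, which is abundant on regulatory T cells and rises on other T cells after activation. Tnfrsf4 (chr4:156013843-156016612) lay at 58.2, 23.0 and 30.2 TPM, from 174, 59 and 70 counts. Tnfrsf18 (chr4:156026164-156028895) lay at 42.9, 30.1 and 29.4 TPM, from 143, 86 and 76 counts. Tnfrsf4 was the higher of the pair in replicates 1 and 3 and the lower in replicate 2, and the mean log2 difference between them, 0.03 ± 0.41, was smaller than its SD.

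Gm16008, the antisense gene over Tnfrsf18, was assigned far more counts than Tnfrsf4 or Tnfrsf18. It had 2058, 2170 and 2169 counts, or 710, 874 and 965 TPM. Per exon base Tnfrsf18 had 0.060, 0.034 and 0.030 times the counts of Gm16008. How much of the counts of Tnfrsf18 and Gm16008 belongs to which gene cannot be read from these tables, so both levels are uncertain. Whether the strand setting matched the library was not tested. Beyond the pair, Sdf4, a calcium-binding Golgi protein that ends 232 bases before Tnfrsf4, had 922, 439 and 486 counts, or 68.9, 38.3 and 46.8 TPM. Like Tnfrsf4, it was highest in replicate 1. By CPM, so were 83.4% of the unopposed protein-coding genes with 10 or more counts in every library. Gm37090, on the other strand between the receptors, had 179, 182 and 187 counts.

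**Figure D1:**
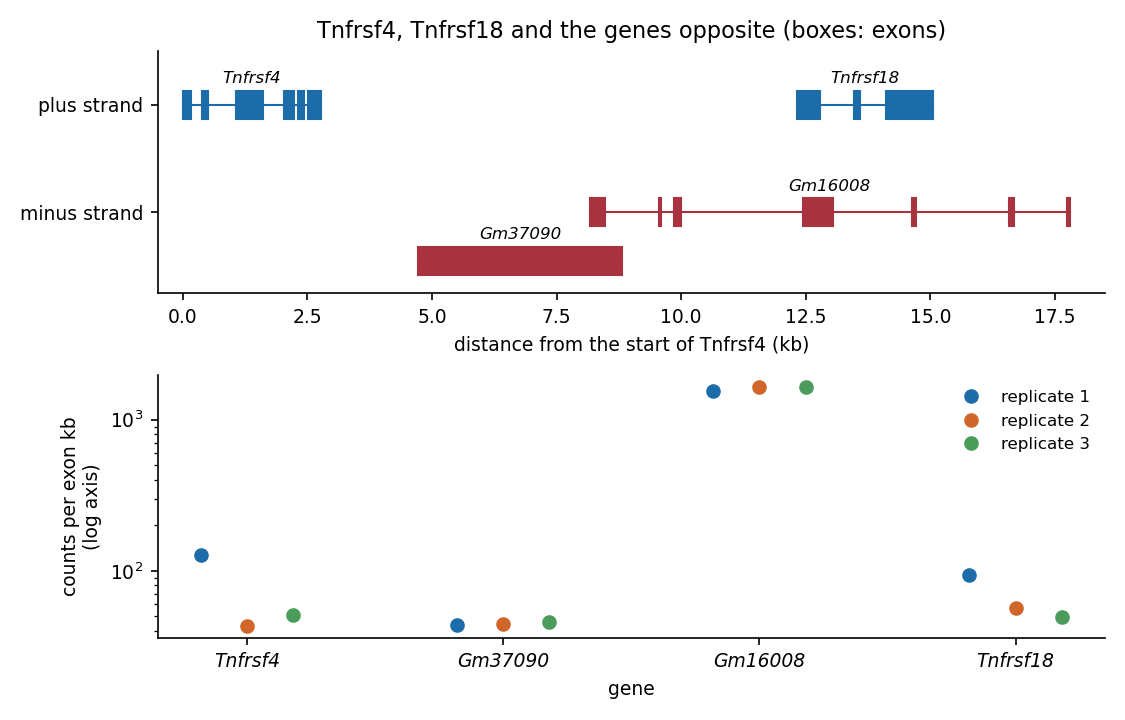
Map of the stretch of chromosome 4 around Tnfrsf4 and Tnfrsf18, with distance from the first base of Tnfrsf4 on the x axis and exons as boxes, plus-strand genes above and minus-strand genes below, and below it counts per kilobase of exon on a log axis for each gene and library. Gm16008 stands at 1554 to 1639 counts per kilobase, against 49.9 to 93.8 for Tnfrsf18 and 43.2 to 127 for Tnfrsf4.

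Tnfrsf9 encodes CD137, a costimulator bound by TRAF1 and TRAF2 that is induced when T cells are activated. It lies at chr4:150914562-150946102 on the plus strand with 2722 exon bases. Its level was 41.6, 10.4 and 18.8 TPM (mean 23.6 ± 16.2), from 248, 53 and 87 counts, and no exact Poisson interval of a library overlapped that of another. Without replicate 1 its mean fell to 14.6 TPM, in proportion the largest move of any of the 9 receptors when a library was left out (0.618 of the mean over all 3). Camta1, the gene opposite, had 61, 28 and 30 counts over exons that Tnfrsf9 does not share, so that per exon base Tnfrsf9 was 21.8, 10.1 and 15.5 times higher.

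The death domain receptors were lower. Tnfrsf25 encodes DR3, which is found mainly on T cells and acts as a costimulator when it binds TL1A. It lies at chr4:152115934-152120119 on the plus strand. Its level was 37.7, 16.6 and 15 TPM (mean 23.1 ± 12.7), from 188, 71 and 58 counts, with replicate 1 apart from the other libraries. Espn, an actin-bundling protein gene on the other strand, lies 211 bases from Tnfrsf25 without overlapping it and had 1198, 1329 and 1138 counts. Unlike Tnfrsf25, Espn did not have its highest count in replicate 1, and in TPM it was lowest there (66.2, 85.6 and 81.0).

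Tnfrsf1a encodes TNFR1, the widely expressed TNF receptor that signals through TRADD. It lies at chr6:125349362-125362484 on the plus strand, and its level was 27.9, 12.6 and 20.9 TPM (mean 20.4 ± 7.67), from 158, 61 and 92 counts. Replicate 2 was the lowest. Of the pair of TNF receptors, TNFR2 was the more abundant in every library, by a log2 difference of 2.40 ± 0.30, or 5.29-fold.

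Fas encodes the receptor for Fas ligand, which recruits FADD and caspase 8 and is known for removing activated T cells. It lies at chr19:34290659-34327770 on the plus strand, and its level was 24.6, 13.6 and 13.4 TPM (mean 17.2 ± 6.41), from 97, 46 and 41 counts. The small noncoding gene Gm27818, within the span of Fas, had 0 counts in every library. Tnfrsf10b, the mouse receptor for TRAIL, lies at chr14:69767472-69784403 on the plus strand and had 14.6, 6.89 and 6.87 TPM, from 101, 41 and 37 counts. For both genes replicates 2 and 3 lay side by side, with replicate 1 above them.

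**Figure D2:**
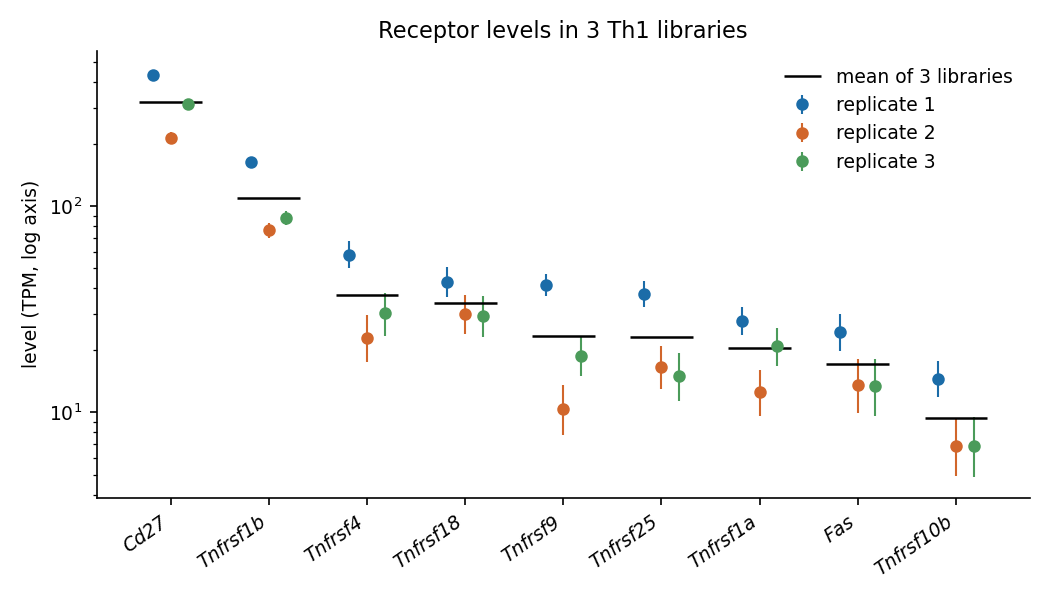
Level of each of the 9 receptors in TPM, on a log axis, with 1 point for each library, vertical lines for 95% exact Poisson intervals and a horizontal bar for the mean, in order of the mean. Cd27 spans 215 to 434 TPM and Tnfrsf10b 6.87 to 14.6 TPM, and replicate 1 is the highest point for each receptor.

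Grouped by role, the 5 TRAF-binding receptors summed to 741, 354 and 479 TPM and the 4 death domain receptors to 105, 49.7 and 56.2 TPM. The ratio of the sums was 7.07, 7.13 and 8.52 (7.58 ± 0.820). Cd27 carried much of it: without Cd27 the ratio was 2.93, 2.82 and 2.96 (2.9 ± 0.0750). Tnfrsf1b, at 164, 76.4 and 87.8 TPM, was the highest TRAF-binding receptor left in that ratio. The medians of the classes stood in the ratio 2.22 ± 0.0866. The classes nevertheless overlapped in level, as Tnfrsf9 in replicate 2 lay below all the death domain receptors but Tnfrsf10b in that library.

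In the order of the 9 levels, 3 of the 8 steps were clear of their spread. Neighbours in the order of means were called apart where the 3 within-library log2 differences shared a sign and their mean exceeded 2 SD. Cd27 stood above Tnfrsf1b by 1.57 ± 0.23, Tnfrsf1b above Tnfrsf4 by 1.58 ± 0.12, and Fas above Tnfrsf10b by 0.89 ± 0.12. The exact two-sided sign-flip test gave p = 0.25 for each, the smallest value that 3 libraries allow, so no pair can pass a threshold of 0.05.

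The 5 steps between were smaller or turned with the library. Tnfrsf18 was above Tnfrsf9 in every library, but by 0.04, 1.53 and 0.64 (0.74 ± 0.75). The differences were -0.07 ± 0.53 for Tnfrsf9 and Tnfrsf25, 0.12 ± 0.52 for Tnfrsf25 and Tnfrsf1a, and 0.23 ± 0.38 for Tnfrsf1a and Fas. Together with the step from Tnfrsf4 to Tnfrsf18, these leave the 6 receptors from Tnfrsf4 to Fas without a settled order of neighbours. Over all 36 pairs, 26 were apart by the same rule. Without length correction Fas and Tnfrsf10b were no longer apart, with a mean difference of 0.08.

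All 9 receptors had their highest CPM (the count scaled to the library total) in replicate 1. So did 83.4% of the unopposed protein-coding genes with 10 or more counts in every library (3553 of 4261), so the receptors' count is near that background. Among opposed protein-coding genes at the same threshold, the class of Tnfrsf18, the share was 54.6% (1566 of 2868). The median shift of the unopposed genes from replicate 1 was -0.64 in replicate 2 and -0.54 in replicate 3 (log2 CPM). That of opposed protein-coding genes was -0.32 and -0.23, and that of opposed noncoding genes was 0.70 and 0.55. The receptors' own differences from replicate 1 ran from -1.72 (Tnfrsf9) to -0.23 (Tnfrsf18) in replicate 2 and from -1.11 (Tnfrsf25) to -0.19 (Tnfrsf1a) in replicate 3. The part of strand assignment in these shifts was not tested.

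The receptors were also set against the median shift of the unopposed coding genes. Cd27 differed from that median by -0.09 and 0.29 in replicates 2 and 3, Tnfrsf1b by -0.18 and -0.14 and Fas by 0.07 and -0.11. Tnfrsf9 lay below it in both (-1.08 and -0.38), as did Tnfrsf25 (-0.25 and -0.57), Tnfrsf4 (-0.41 and -0.19) and Tnfrsf10b (-0.15 and -0.32). Tnfrsf18, the opposed receptor, lay above it by 0.42 and 0.22. The median of its own class, the opposed protein-coding genes, also lay above it, by 0.32 and 0.30. Tnfrsf18 thus lay near the median of its class, above it in replicate 2 and below it in replicate 3. Tnfrsf1a lay on both sides of the unopposed coding median, with -0.22 and 0.35.

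**Figure D3:**
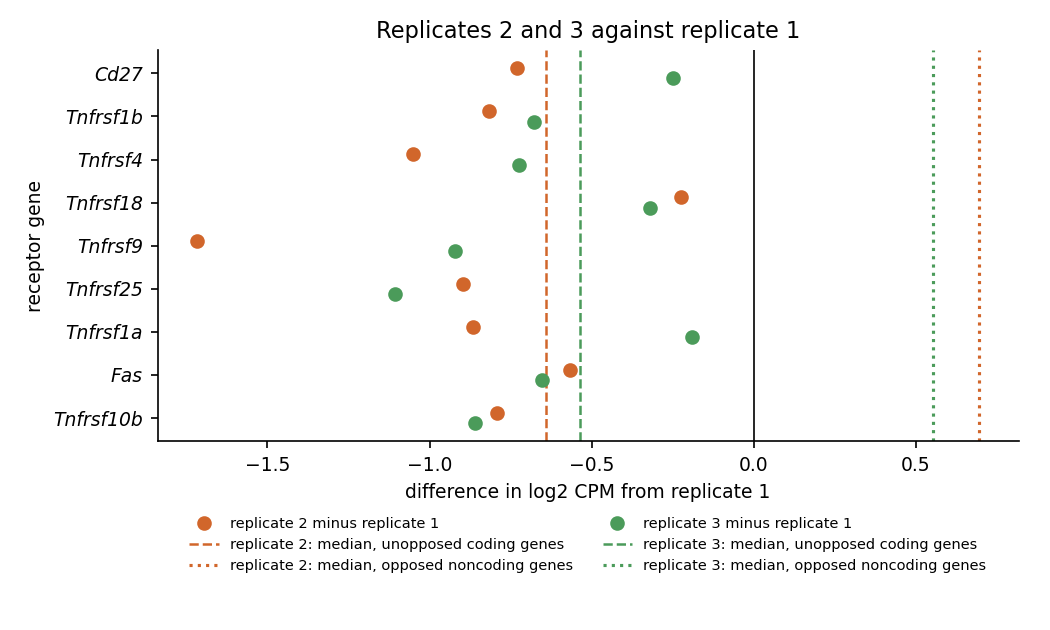
Difference in log2 CPM of replicate 2 and of replicate 3 from replicate 1, for each of the 9 receptors as points, with dashed lines at the medians of unopposed coding genes and dotted lines at those of opposed noncoding genes. The receptors lie below 0, around the unopposed coding medians of -0.64 and -0.54, and away from the opposed noncoding medians of 0.70 and 0.55.

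Whether the replicates differed beyond counting error was tested on the whole table, after scaling with TMM factors. A chi-square test of the counts with Benjamini-Hochberg adjustment called 59.6% of the 9469 genes fitted (5642), and 6 of the 9 receptors. The 6 were Cd27 (adjusted p = 2.82e-13), Tnfrsf1b (1.63e-10), Tnfrsf9 (8.98e-10), Tnfrsf25 (0.000831), Tnfrsf4 (0.00714) and Tnfrsf1a (0.0303). Tnfrsf10b (0.132), Fas (0.528) and Tnfrsf18 (0.816) did not pass. The receptors' share is close to the background, and it depends on the genes used for scaling: over genes with no opposed exon, where 37.8% were called (1992 of 5276), 3 of 8 receptors passed, Cd27 (4.48e-12), Tnfrsf9 (6.80e-06) and Tnfrsf1b (0.0351). Over genes with no gene opposite, where 36% were called (1536 of 4272), 0 of 6 receptors passed this chi-square test and 3 did so at an unadjusted p under 0.05. With all genes, 3 receptors passed without replicate 1 (Cd27, Tnfrsf9 and Tnfrsf1a), 3 without replicate 2 (Tnfrsf1b, Tnfrsf9 and Tnfrsf25) and 5 without replicate 3, and Tnfrsf9 passed in each case.

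None of the receptors passed the test for varying more than genes of like level. The edgeR test against the dispersion trend called 24 of 9469 genes (0.253%) and 0 receptors, with 0 receptors at an unadjusted p under 0.05 and 0 by DESeq2. The smallest p among them was that of Tnfrsf9, 0.0767 (adjusted p = 0.876). On the TMM scale Tnfrsf9 lay at 48.0, 18.7 and 32.2 CPM, with an SD of 0.679 on the log2 scale against a median of 0.348 for genes of like level. Tnfrsf18 had the smallest SD of the 9, 0.0726, with 27.7, 30.4 and 28.1 CPM, and its overlap with Gm16008 stands beside that value.

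**Figure D4:**
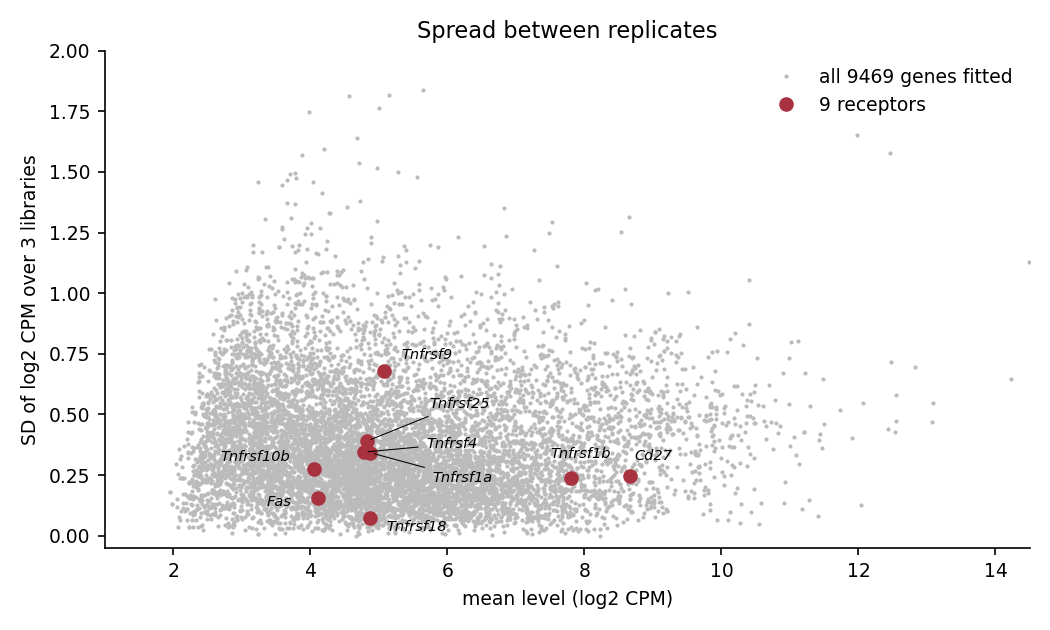
SD of log2 CPM over the 3 libraries after TMM scaling (y axis) against mean log2 CPM (x axis) for the 9469 genes fitted, with the 9 receptors as large points, and 2 genes lie outside the axes. Tnfrsf9 is highest of the receptors at 0.679 and Tnfrsf18 lowest at 0.0726, and all 9 lie within the cloud of other genes.

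Of the ligands of these receptors, 4 of 9 lay at 1 TPM or more in every library and 3 had no count. Tnf, which engages TNFR1 and TNFR2, was the highest, with 704, 412 and 432 TPM (516 ± 163), above Cd27 in every library. Lta, the gene of lymphotoxin alpha, which binds the same pair, followed with 194, 129 and 117 TPM. Fasl, the ligand of Fas, lay at 36.1, 17.1 and 15.8 TPM, and Tnfsf9, the ligand of CD137, at 4.09, 3.03 and 4.31 TPM from 11, 7 and 9 counts. The median of the list was 0.246 ± 0.148 TPM, near the 0.252 ± 0.0511 TPM of all protein-coding genes, so the list splits into a few abundant ligands and the rest.

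The ligands of the other receptors were at or near 0. Cd70, the ligand of Cd27, had 0 counts in all 3 libraries, which allows up to 1.63, 1.90 and 2.10 TPM. Tnfsf4, the ligand of OX40, also had 0 counts, which allows up to 0.744, 0.868 and 0.959 TPM, and so did Tnfsf15, the gene of TL1A. Tnfsf18, the ligand of GITR, had 1, 0 and 0 counts and Tnfsf10, the gene of TRAIL, had 2, 4 and 1. The ligands of CD27, OX40 and GITR are best known from antigen-presenting cells, and in a bulk sample fewer cells of a type and less RNA per cell cannot be told apart.

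The other 19 receptors of the family were mostly scarce. At 1 TPM or more in every library there were 6, and 8 had no count, among them Cd40, Tnfrsf8 and Tnfrsf17. The highest was Tnfrsf14, which encodes HVEM, at 19.3, 14.7 and 10.1 TPM. Tnfrsf12a, the receptor for TWEAK, lay at 17.6, 7.75 and 9.79 TPM, and Tnfrsf26 at 8.24, 2.98 and 2.20 TPM with an opposed exon. The list's median was 0.388 ± 0.252 TPM. Tnfrsf14, the highest of the 19, was thus below the mean of 8 of the 9 members, and above Tnfrsf10b alone. Of the neighbours of members on the chromosome, Tnfrsf8, 20266 bases from Tnfrsf1b, had no count, and Ltbr, which lies between Cd27 and Tnfrsf1a, had 1, 6 and 2 counts.

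Downstream, the TRAF adaptors and their ubiquitin ligases were all present, 10 of 10 at the level of 1 TPM in all 3 libraries, and their median was 19.1 ± 7.10 TPM. The highest were Map3k14, the kinase NIK of the noncanonical NF-kB pathway, at 66.4, 34.0 and 48.9 TPM, Traf1 at 66.5, 30.8 and 41.9 TPM and Birc3, the ubiquitin ligase cIAP2, at 62.0, 37.5 and 38.9 TPM. Traf2, the adaptor most of these receptors bind, lay at 14.2, 7.63 and 6.81 TPM. Traf1 exceeded Traf2 in every library. Traf5, an adaptor known for CD27 and OX40 signalling, was the lowest, at 3.50, 2.45 and 3.22 TPM, and is an opposed gene.

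The adaptors of the death domain receptors and the genes that hold caspase activation in check were also all present, 10 of 10, with a median of 11.4 ± 2.05 TPM. Casp8, the initiator caspase of this pathway, lay at 66.0, 38.5 and 42.3 TPM, and Cflar, which encodes its inhibitor cFLIP, at 30.7, 16.3 and 16.3 TPM. Tnfaip3, the ubiquitin-editing enzyme A20 that restrains NF-kB, lay at 62.9, 31.4 and 37.0 TPM. Fadd, the adaptor of Fas, was the lowest at 1.4, 1.78 and 1.21 TPM and is opposed, while Tradd, the adaptor of TNFR1, lay at 12.2, 6.86 and 7.89 TPM. Both FADD and TRADD transcripts were thus far below Casp8.

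The listed targets of receptor signalling through NF-kB, 7 in number, each reached 1 TPM in all 3 libraries. Their median was 34.8 ± 17.2 TPM. Nfkbia, the inhibitor that NF-kB itself induces, lay at 448, 144 and 260 TPM, with its level in replicate 1 far above the others. Nfkb1 lay at 305, 182 and 197 TPM and Nfkb2, an opposed gene, at 257, 147 and 167 TPM. As for the receptors, replicate 1 was the highest for each of the 3.

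**Figure D5:**
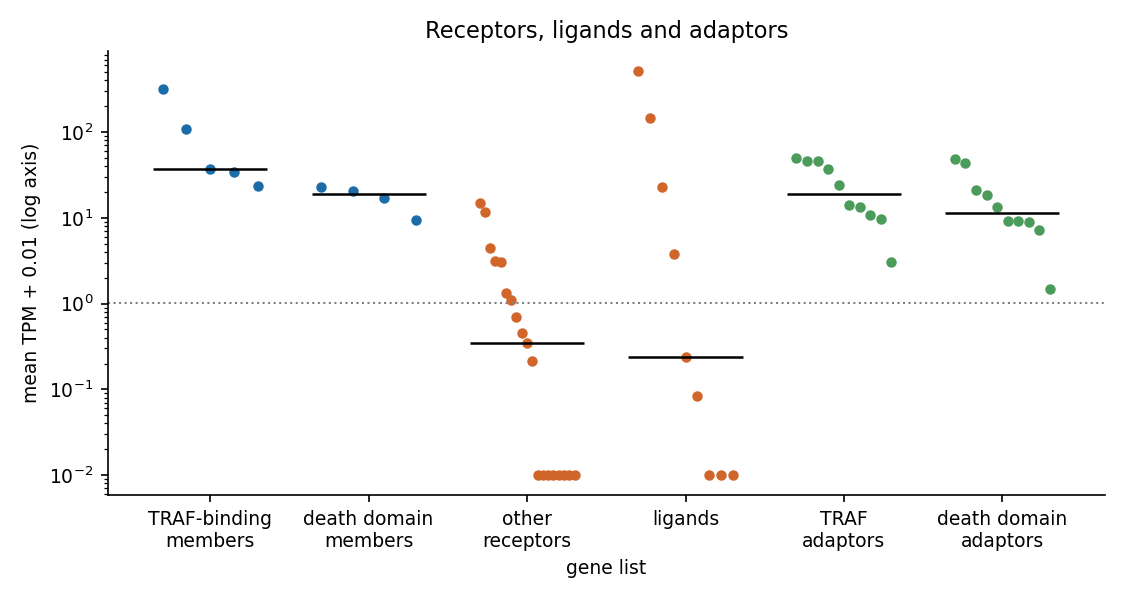
Mean TPM over the 3 libraries of each gene in the lists of other receptors, ligands, TRAF adaptors and death domain adaptors beside the 9 receptors, on a log axis of TPM + 0.01, with a bar at each list's median and a line at 1 TPM. The ligands spread from 0 to Tnf at 516 TPM and the other receptors from 0 to Tnfrsf14 at 14.7 TPM, while the adaptors, 10 in each list, lie above the line.

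Markers of other cells were read beside these levels. Of the regulatory T cell markers, 3 of 4 lay at 1 TPM or more in every library, and their sum was 144, 93.1 and 109 TPM. Foxp3 lay at 56.2, 55.1 and 67.5 TPM but is an opposed gene, Il2ra, which activated T cells also carry, at 68.7, 29.7 and 35.2 TPM, Ctla4 at 18.4, 8.01 and 6.32 TPM, and Ikzf2 at 0.197, 0.367 and 0.203 TPM. Il2ra and Ctla4 were highest in replicate 1, Foxp3 in replicate 3 and Ikzf2 in replicate 2. The levels of Tnfrsf18, Tnfrsf4 and Tnfrsf1b, receptors known on regulatory T cells, were highest in replicate 1. By CPM, so were 83.4% of unopposed coding genes and 54.6% of opposed ones, the class of Tnfrsf18. The markers' part in the levels of these receptors was not tested.

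Markers of cells outside the T lineage were mostly at or near 0. Of the 5 B cell markers reported, 1 was detected, Cd79a, at 27.0 to 48.7 TPM, and Cd79b, Ms4a1, Cd22 and Pax5 had no count. Of the NK cell markers 0 of 3 reached 1 TPM in every library, with a sum of 0 to 1.07 TPM and no count of Ncr1 or Klrb1c. Of the macrophage markers 2 of 5 did, with a sum of 137 to 181 TPM that was nearly all Csf1r, an opposed gene, while Lyz2 had no count. Of the dendritic cell markers 1 of 5 did, Cd74, and the list summed to 6.37 to 8.77 TPM with no count of Itgax or Flt3. Of the CD8 T cell markers Cd8b1 lay at 10.5, 5.75 and 3.97 TPM and Cd8a had 2, 1 and 0 counts.

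Genes with the level pattern most like that of each of the 3 most abundant receptors were found among all protein-coding genes, by the distance between log2(TPM + 0.1) values over the 3 libraries. For Cd27 these were Sod1 (distance 0.0983) and Ybx1 (0.161), for Tnfrsf1b they were Ywhae (0.0988) and Psmc5 (0.151), and for Tnfrsf4 they were Tprgl (0.101) and Pdhb (0.103). With 3 libraries the measure mostly reflects the level. Sod1 lay at 432, 204 and 299 TPM beside the 434, 215 and 313 TPM of Cd27.

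The receptor genes lie on chromosomes 4, 6, 14 and 19. Chromosome 4 holds 7 genes of the listed family, 5 of them members: Tnfrsf1b, Tnfrsf9, Tnfrsf25, Tnfrsf4 and Tnfrsf18. Chromosome 6 holds 3, of which Cd27 and Tnfrsf1a are members. The mean levels of the 5 members on chromosome 4 ran from 23.1 TPM (Tnfrsf25) to 109 TPM (Tnfrsf1b). The highest of the 9 levels, Cd27, and one of the lowest 3, Tnfrsf1a, were the pair on chromosome 6.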

How the data were processed

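The authors deposited 1 table of raw counts per library. The alignment step, per the file headers, is named star2 and was stranded and paired-end, and pairs were counted over exons with featureCounts 1.4.6-p4, GENCODE vM13 and mm10, with strand setting 1 and both reads of a pair required to align. The assay is total RNA-seq per the labels, which link a library protocol named for poly(A)+ RNA. The headers name a time point of 2 hours that the labels do not give.

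From the counts, TPM and CPM were computed here in Python 3.11.15 over all 50600 genes. Symbols came from GENCODE vM21 (50376 genes, 99.56%), and overlaps from the tables' own coordinates. A gene with 0 counts may lie at up to 0.675, 0.960 and 1.02 CPM (limit of 3 counts) in replicates 1, 2 and 3. Such limits, and the 95% exact Poisson intervals, hold counting error alone. Spread was tested in edgeR 4.0.16 (R 4.3.3) with TMM scaling and a minimum count of 10, in an intercept-only fit: the deviance at the trended dispersion and the chi-square of counts were each adjusted over the 9469 genes fitted at 0.05. DESeq2 1.42.0 was an alternative. Both tests were tested on simulated data.

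The 9 members, the gene lists and the tests were chosen with earlier results of these data known. All members are named. Of other lists, the 3 highest genes, those that pair with a member and those that overlap one are named by rule, and others were named after their values were seen. One listed B cell marker is not reported here. Alternatives changed the genes in the TPM denominator, the scaling, the pseudocount of 0.1, the length correction, the filter, the genes fitted and the libraries used.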

Additional observations from a re-analysis of the deposited data

How the results depend on the processing

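All 9 receptors stayed at 1 TPM or more in every library under each alternative run, or at 1 CPM or more with CPM in place of TPM. Only the change to CPM could have lowered this number. Leaving out a library, or taking genes out of the TPM denominator, cannot lower it. Of the 45 alternative values for their levels, 36 moved by less than 1 SD, and the other 9 came from TPM over genes without opposed exons, where each level was 3.76 to 4.09 times higher. Leaving out 1 of 3 libraries cannot move a mean by 1 SD of those libraries, so those values are no check of stability. In proportion, the levels became 0.618 to 0.872 of the mean without replicate 1, 1.06 to 1.28 without replicate 2 and 0.989 to 1.18 without replicate 3. Of 40 alternative values for neighbours in the order, 38 kept their call. Tnfrsf25 and Tnfrsf1a came apart without replicate 3 (0.42), and Fas and Tnfrsf10b were no longer apart without length correction (0.08). The sign of the mean difference changed in 8 of the 40, all between neighbours that were not apart under either setting: without length correction for Tnfrsf4 and Tnfrsf18 (-0.13), Tnfrsf18 and Tnfrsf9 (-0.10), Tnfrsf9 and Tnfrsf25 (0.19) and Tnfrsf25 and Tnfrsf1a (-0.065), and with a library left out for Tnfrsf4 and Tnfrsf18 (-0.17 to 0.24), Tnfrsf9 and Tnfrsf25 (-0.27 to 0.23) and Tnfrsf25 and Tnfrsf1a (-0.037 to 0.42). The cause was not tested.

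The count of genes beyond the dispersion trend, 24, became 44 over all genes with a count above 0, 55 over genes with no gene opposite, 90 over genes with no opposed exon and 4 as DESeq2 dispersion outliers, and ran from 3 to 21 with a library left out (3 without replicate 2, 8 without replicate 3 and 21 without replicate 1). The count beyond counting noise, 5642, became 1536 and 1992 over those same gene sets and ran from 2476 (without replicate 1) to 4815 (without replicate 3). The count of receptors beyond counting noise, 6 of 9, became 0 of 6 and 3 of 8 over those gene sets. Cd27 and Tnfrsf9, called with all genes, were not among the genes with no gene opposite and could not be called there. With all 9 receptors, the count was 5 with DESeq2 size factors. It was 3 to 5 with a library left out (3 without replicate 1 and 3 without replicate 2). Chosen after seeing the data were the fits over genes with no opposed exon, the noise tests over both gene sets, the receptors' noise count over all genes with a count above 0, and every alternative for the receptors beyond the dispersion trend, of whom there were 0 under each. The causes were not tested. No paired analysis was possible because the 3 libraries form 1 group. At this depth the levels of Ifng, Cd70 and the other genes with 0 to 3 counts cannot be told from 0. The part of strand assignment in those low counts was not tested.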
